A study of Mus musculus with 6 samples.

Results

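The fatty acid elongases and desaturases of mouse liver were described as a set of 10 genes of the ELOVL, FADS and SCD families: Elovl1, Elovl2, Elovl3, Elovl5, Elovl6, Fads1, Fads2, Fads3, Scd1 and Scd2. They were found by gene symbol among 49212 counted genes, and all 10 passed the filter on low counts that left 15126 genes for testing. Liver RNA came from C57BL/6J mice aged 15 weeks, 3 libraries from mice with a dihydrotestosterone (DHT) pellet and 3 from mice with a placebo. DHT is an androgen, and the pellet serves to model polycystic ovary syndrome. The labels give neither the dose nor the sex, and do not say that each library is a separate animal, so every p-value reflects the variation among these 6 libraries, which may be technical.

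Total counts lay between 41336844 and 59257416 in the DHT libraries and between 52814320 and 60209462 in the placebo libraries. Transcripts of the Y chromosome summed to between 145 and 169 CPM, the count scaled to the library's total in the DHT libraries and between 1.02 and 2.16 CPM in the placebo libraries. Xist, the X-inactivation transcript of female cells, lay between 0.116 and 0.556 CPM in the DHT libraries and between 23.3 and 234.9 CPM in the placebo libraries. By these transcripts the DHT libraries read as male and the placebo libraries as female, which the labels do not state. Pellet and sex therefore cannot be told apart in any difference below. The DHT label also names polycystic ovary syndrome, an ovarian condition, which is at odds with the male reading of the DHT libraries. Whether each library matches its label was not tested, so DHT and placebo below mean the groups as labelled. Placebo 3 stood apart: its counts differed from those of the other placebo libraries with a chi-square per degree of freedom of 675.77 and 677.06, against 104.65 to 246.02 for the other pairs within a group. Because bulk liver was sequenced, fewer cells of a type and less RNA per cell cannot be told apart either.

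Elongases of the ELOVL family carry out the rate-limiting condensation that lengthens a fatty acyl-CoA in the endoplasmic reticulum. Desaturases place double bonds, and both classes together decide whether a chain stays saturated, becomes monounsaturated or becomes a long polyunsaturated fatty acid. In the saturated and monounsaturated route, ELOVL6 turns palmitate into stearate, SCD enzymes turn stearate into oleate, and ELOVL1 and ELOVL3 make very long chains. In the polyunsaturated route, FADS2 starts on linoleic and alpha-linolenic acid, ELOVL5 and FADS1 act next, and ELOVL2 makes the precursors of docosahexaenoic acid. FADS3 was kept outside both routes, as its known substrates include sphingoid bases.

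By edgeR's quasi-likelihood test with Benjamini-Hochberg adjustment over 15126 genes, 2 of the 10 members rose in DHT livers, 0 fell and 8 were not called at an adjusted p under 0.05. At an unadjusted p under 0.05, 3 were higher and 0 lower, against 15.9% of all genes tested in either direction. DESeq2 and limma voom each called 2 higher and 0 lower, against 7.03% of all genes by DESeq2 and 4.92% by limma voom. The members that rose were Elovl3, of the saturated and monounsaturated route, and Elovl5, of the polyunsaturated route. Of all genes tested, 0.952% were called higher and 0.701% lower, or 1.65% in either direction. Of the members, 3 (Elovl3, Elovl5 and Fads3) had groups that did not overlap in CPM, all with DHT above placebo. Of all genes tested, 27.4% had groups that did not overlap, 21.1% with DHT above and 6.27% with DHT below. With the replicate number as a block, 1 member was called, Elovl5, against 10.7% of all genes tested. The median log2 fold change was 0.17 over the 10 members and -0.02 over all genes tested.

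**Figure D1:**
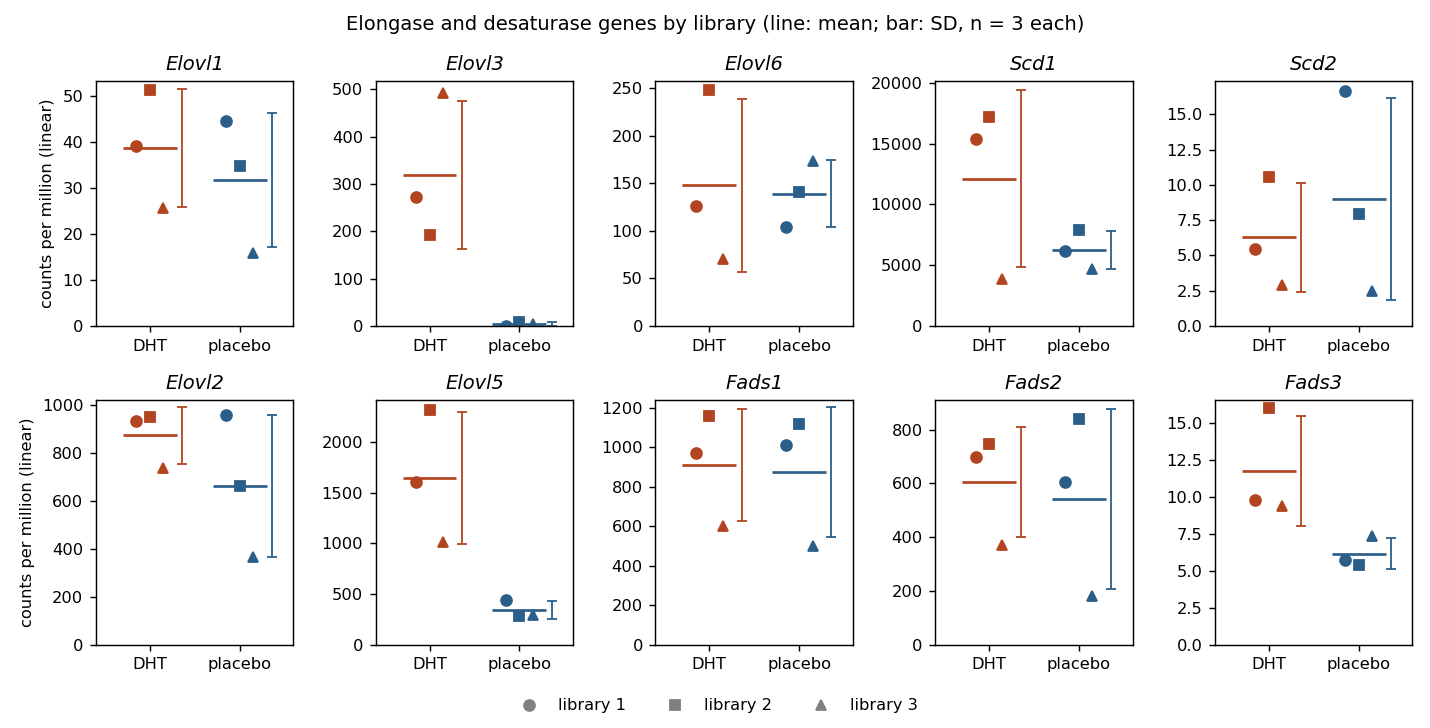
CPM of each member (vertical axis, linear, from 0) in the 3 DHT libraries, at the left of each panel, and the 3 placebo libraries, at the right. Horizontal lines are means, bars are SD, and the marker shape gives the library number. Elovl3 and Elovl5 lie well above placebo in all 3 DHT libraries, Fads3 lies narrowly above, and the groups overlap in the other members.

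Elovl3 makes saturated and monounsaturated very long chains and is known in mouse liver for male-biased, time-of-day dependent expression. It lies on GRCm38 chromosome 19 from 46131897 to 46135307. It had 271.6, 192.8 and 492.9 CPM in DHT 1, 2 and 3, and 0.830, 7.997 and 4.98 CPM in placebo 1, 2 and 3. The groups were far apart, with DHT 3 highest and placebo 1 lowest. In counts, this was 16097, 9975 and 20375 in the DHT libraries against 50, 440 and 263 in the placebo libraries. The mean was 319 ± 156 CPM in DHT livers and 4.603 ± 3.598 CPM in placebo livers (SD, n = 3 each).

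Fitted over all libraries, Elovl3 had a log2 fold change of 5.91 ± 0.86 (SE), a 60.0-fold difference with a 95% interval from 15.1 to 238.1 (edgeR adjusted p = 0.0174). Paired by library number, the log2 differences in CPM were 8.35, 4.59 and 6.63 for numbers 1, 2 and 3. With the replicate number as a block, the log2 fold change was 6.28 and the call was lost (edgeR adjusted p = 0.110). It was also lost without placebo 2 (edgeR adjusted p = 0.0529) or placebo 3 (edgeR adjusted p = 0.0763).

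Elovl3 ends 378 bases before Pitx3, a homeobox gene on the opposite strand, as both are drawn in the deposited tables. Pitx3 had 154, 63 and 155 counts in DHT 1, 2 and 3 and 0 counts in each placebo library. In the GENCODE M21 annotation of the same build Elovl3 runs on to 46135694, past the first base of Pitx3 at 46135685. The strand setting of the counting is not given in the sources used here. The counts of Pitx3 therefore cannot be told from reads of the end of Elovl3. As counted, 0% of the exon bases of Elovl3 overlapped another gene. Its counts of 16097, 9975 and 20375 in DHT 1, 2 and 3 were far above those of Pitx3.

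Elovl5 lengthens polyunsaturated fatty acids between the FADS2 and FADS1 steps. It lies on chromosome 9 from 77917364 to 77984519. It had 1609, 2320 and 1013 CPM in DHT 1, 2 and 3, and 445.0, 281.9 and 293.2 CPM in placebo 1, 2 and 3. Even the lowest DHT library was above the highest placebo library. The mean was 1647 ± 655 CPM in DHT livers and 340.0 ± 91.1 CPM in placebo livers (SD, n = 3 each).

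Fitted in the same way, Elovl5 had a log2 fold change of 2.09 ± 0.37 (SE), a 4.27-fold difference with a 95% interval from 2.35 to 7.76 (edgeR adjusted p = 0.038). Paired by number, the log2 differences in CPM were 1.85, 3.04 and 1.79. The call was lost without DHT 1 (edgeR adjusted p = 0.121), DHT 2 (0.124), placebo 1 (0.109) or placebo 2 (0.118). It was kept without DHT 3 (edgeR adjusted p = 0.0289) or placebo 3 (0.0216). In these 6 fits it lay between 1.79 and 2.36 on the log2 scale, and with the replicate block it was 2.03 (edgeR adjusted p = 1.92e-05).

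Promoters of elongases are shown because Elovl5 rose while Elovl2 and Elovl6 were not called. Each sequence is the 250 bases before the start in RefSeq (GRCm38.p6), 5′ to 3′ on the gene's strand. Capitals mark matches, on either strand, to CACGTG (the E-box), CCAAT (the NF-Y box), AGGTCA (a nuclear receptor core motif) or AGAACA (an androgen receptor core motif). No 2 matches overlap in them. The windows are chr9:77917115-77917364 (+) for Elovl5, chr13:41220404-41220653 (-) for Elovl2 and chr3:129532136-129532385 (+) for Elovl6.
Elovl5: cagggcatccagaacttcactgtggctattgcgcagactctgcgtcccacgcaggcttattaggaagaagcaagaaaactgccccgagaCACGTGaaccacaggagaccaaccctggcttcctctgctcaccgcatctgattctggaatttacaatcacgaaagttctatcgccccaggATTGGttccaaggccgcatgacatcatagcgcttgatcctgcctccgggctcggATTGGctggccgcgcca
Elovl2: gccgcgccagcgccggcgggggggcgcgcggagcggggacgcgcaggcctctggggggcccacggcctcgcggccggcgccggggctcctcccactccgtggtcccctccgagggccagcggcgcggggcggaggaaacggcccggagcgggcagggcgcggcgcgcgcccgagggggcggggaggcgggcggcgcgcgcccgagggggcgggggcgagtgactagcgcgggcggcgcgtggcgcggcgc
Elovl6: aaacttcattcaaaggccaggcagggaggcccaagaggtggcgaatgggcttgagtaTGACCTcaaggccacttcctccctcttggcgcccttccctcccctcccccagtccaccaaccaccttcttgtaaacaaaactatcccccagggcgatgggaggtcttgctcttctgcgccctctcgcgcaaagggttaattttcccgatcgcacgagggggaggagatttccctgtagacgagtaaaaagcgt
The Elovl5 window holds 1 E-box, whose first base is at -161 from the start, and NF-Y boxes at -71 and -17. The Elovl6 window holds 1 nuclear receptor core motif at -193, and the Elovl2 window, with 87.2% G and C, holds a match to none of these 4 motifs. Of 32851 promoter windows of this length, 6.02% hold an E-box, 33.8% an NF-Y box, 14.0% a nuclear receptor core motif and 16.1% an androgen receptor core motif. Of the 10 members, 6 were matched in the RefSeq table by symbol. Besides these 3, they were Elovl1, with an NF-Y box at -35, Fads3, with NF-Y boxes at -106 and -78, and Fads2, with a match to none of the 4 motifs. Elovl3, Fads1, Scd1 and Scd2 were not matched.

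**Figure D2:**
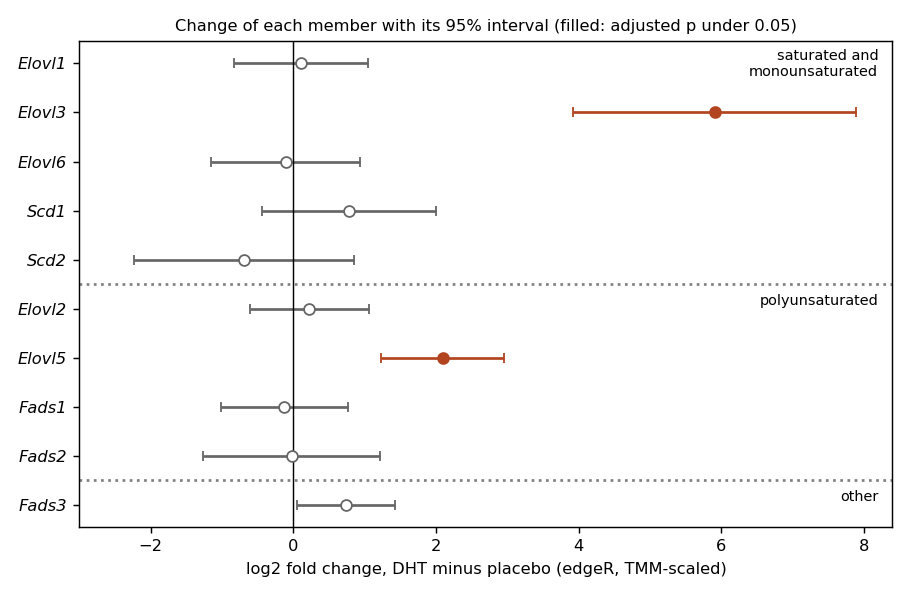
Log2 fold change of each member, DHT minus placebo, with its 95% interval (horizontal axis), ordered by route. Filled points are Elovl3 at 5.91 and Elovl5 at 2.09. The intervals of 7 of the other 8 members span 0, and that of Fads3 lies just above it.

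Scd1, the main stearoyl-CoA desaturase of adult liver, was the most abundant member in all 6 libraries (chromosome 19, 44394451 to 44407709). It had 15383, 17171 and 3830 CPM in DHT 1, 2 and 3, and 6138, 7863 and 4713 CPM in placebo 1, 2 and 3. DHT 1 and DHT 2 lay far above placebo, while DHT 3 lay below all 3 placebo libraries. The mean was 12128 ± 7242 CPM in DHT livers and 6238 ± 1577 CPM in placebo livers (SD, n = 3 each). The log2 fold change was 0.77 ± 0.53 (SE, edgeR adjusted p = 0.505), with a 95% interval from a 0.736-fold to a 3.98-fold level. It was 1.21 without DHT 3, still short of a call (edgeR adjusted p = 0.258).

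Scd2, the isoform best known from brain and from the liver early in life, was low (chromosome 19, 44293676 to 44306864). It had 5.43, 10.5 and 2.90 CPM in DHT 1, 2 and 3, and 16.6, 7.93 and 2.46 CPM in placebo 1, 2 and 3. The groups overlapped, and the log2 fold change was -0.69 ± 0.67 (edgeR adjusted p = 0.642). In the GENCODE transcripts, 0.879% of the 100-base stretches of Scd2 and 2.58% of those of Scd1 also occur in another gene, mostly another SCD gene. How the counting treated such reads is not given here, so the level of Scd2 is uncertain.

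Elovl6, the palmitate elongase, lies on chromosome 3 from 129532355 to 129638495. It had 125.9, 247.9 and 70.4 CPM in DHT 1, 2 and 3, and 103.9, 140.5 and 173.3 CPM in placebo 1, 2 and 3. The DHT libraries held both the highest and the lowest value. Its log2 fold change of -0.11 ± 0.45 (edgeR adjusted p = 0.931) had a 95% interval from a 0.450-fold to a 1.91-fold level. The sign was not settled, as it was positive with library size alone (0.089) and without DHT 3 (0.24).

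Elovl1, which makes saturated very long chains in most tissues, had 39.1, 51.4 and 25.8 CPM in DHT 1, 2 and 3 and 44.7, 34.8 and 15.8 CPM in placebo 1, 2 and 3 (chromosome 4, 118428093 to 118432953). The groups overlapped, and number 3 was the lowest library of each. Elovl1 had a log2 fold change of 0.11 ± 0.41 (edgeR adjusted p = 0.925), and -0.21 without placebo 3.

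Fads2, the entry desaturase of the polyunsaturated route, had 695.9, 746.3 and 371.8 CPM in DHT 1, 2 and 3 and 604.9, 840.4 and 178.9 CPM in placebo 1, 2 and 3 (chromosome 19, 10064164 to 10101503). The groups overlapped over most of their range. Fads2 had a log2 fold change of -0.02 ± 0.54 (edgeR adjusted p = 0.988), with a 95% interval from a 0.417-fold to a 2.32-fold level.

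Fads1, which completes arachidonic acid, had 970.6, 1159 and 602.4 CPM in DHT 1, 2 and 3 and 1014, 1117 and 498.9 CPM in placebo 1, 2 and 3 (chromosome 19, 10182888 to 10196870). Each library lay close to the one with the same number in the other group. The paired log2 differences in CPM were -0.06, 0.05 and 0.27. Fads1 had a log2 fold change of -0.13 ± 0.39 (edgeR adjusted p = 0.902), with a 95% interval from a 0.493-fold to a 1.70-fold level. The signs for Fads1 and Fads2 turned positive with library size alone.

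Elovl2, which elongates long polyunsaturated chains, had 932.0, 947.1 and 735.2 CPM in DHT 1, 2 and 3 and 955.6, 659.9 and 362.7 CPM in placebo 1, 2 and 3 (chromosome 13, 41182495 to 41220405). The highest placebo library was above all DHT libraries. Elovl2 had a log2 fold change of 0.22 ± 0.36 (edgeR adjusted p = 0.795).

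Fads3 was weakly expressed, at 9.80, 16.1 and 9.41 CPM in DHT 1, 2 and 3 and 5.75, 5.36 and 7.35 CPM in placebo 1, 2 and 3 (chromosome 19, 10041548 to 10059671). The groups did not overlap, but the gap between the nearest libraries was small. Its log2 fold change of 0.74 ± 0.30 had an edgeR p of 0.0377 before adjustment and 0.283 after it, and no setting that was tried called it.

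Levels were compared between members per length, as TPM (counts over exon length, scaled to the same total in each library). Elovl5 was above Elovl2 in each DHT library, at 1016, 1410 and 575.0 TPM for Elovl5 and 538.2, 526.3 and 381.5 TPM for Elovl2 in DHT 1, 2 and 3. In placebo 1, 2 and 3 the order was the other way, at 255.0, 182.2 and 157.8 TPM for Elovl5 and 500.6, 390.1 and 178.5 TPM for Elovl2. The ratio of Elovl5 to Elovl2 was 1.89, 2.68 and 1.51 in the DHT libraries and 0.509, 0.467 and 0.884 in the placebo libraries. Placebo 3 came closest to equal levels.

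The saturated-chain elongases changed order in the same libraries. Elovl3 had 404.5, 276.3 and 659.6 TPM in DHT 1, 2 and 3, against 43.5, 82.5 and 21.9 TPM for Elovl6. In placebo 1, 2 and 3, Elovl3 had 1.12, 12.2 and 6.32 TPM and Elovl6 had 32.6, 49.8 and 51.1 TPM. The ratio of Elovl3 to Elovl6 was 9.29, 3.35 and 30.1 in the DHT libraries and 0.0344, 0.245 and 0.124 in the placebo libraries. Elovl3 and Elovl5 carry these shifts, so the ratios restate their change beside a neighbour in the pathway and were not tested.

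**Figure D3:**
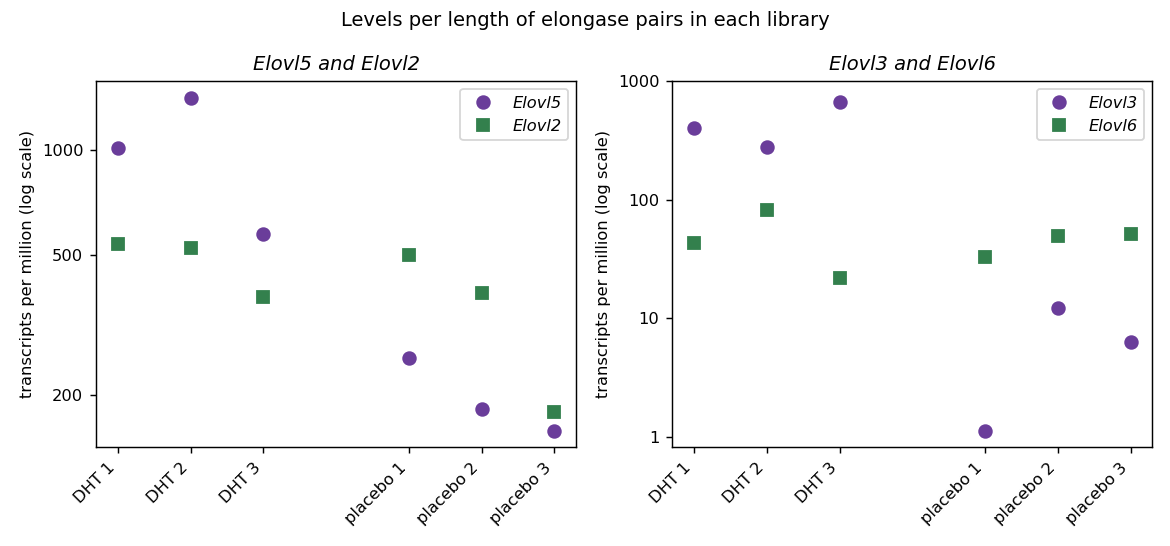
Levels per length, in TPM on a log axis, of Elovl5 and Elovl2 at the left and of Elovl3 and Elovl6 at the right, for each library. Elovl5 and Elovl3 lie above their partner in all 3 DHT libraries and below it in all 3 placebo libraries.

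The other levels kept a looser order. Scd1 had 7076, 7601 and 1583 TPM in DHT 1, 2 and 3 and 2561, 3702 and 1847 TPM in placebo 1, 2 and 3. Fads2 and Fads1 exchanged ranks only in placebo 3, where Fads2 had 224.8 and Fads1 273.6 TPM, a gap well inside the spread between placebo libraries. Fads3 and Scd2 were near the bottom in every library, at most 10.5 TPM for Fads3 and 6.15 TPM for Scd2. Elovl3 was the least abundant member in placebo 1 and second only to Scd1 in DHT 3.

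Summed over the genes of each route, the saturated and monounsaturated route took 70.2, 68.3 and 56.0% of the TPM of both routes in DHT 1, 2 and 3, and 55.0, 59.6 and 69.7% in placebo 1, 2 and 3. The mean was 64.8 ± 7.74% in DHT livers and 61.4 ± 7.51% in placebo livers (SD, n = 3 each), a difference smaller than the spread in either group. Summed in CPM, the shares were 72.8 ± 9.44% in DHT livers and 73.3 ± 5.52% in placebo livers, a difference of -0.51 percentage points, so the sign turned with the unit. Scd1 made up most of that sum. With 3 libraries against 3 an exact permutation test cannot go below p = 0.10, and no test was made of a sum over members chosen with earlier results known.

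Among the elongases alone, Elovl1, Elovl3 and Elovl6 took 23.6, 17.1 and 42.3% of the summed TPM in DHT 1, 2 and 3, and 8.13, 13.7 and 16.9% in placebo 1, 2 and 3, with Elovl2 and Elovl5 taking the rest. DHT 2 and placebo 3 almost met. Both sums were higher in the DHT libraries, at 480, 399 and 700 TPM against 66.8, 91.0 and 68.4 TPM in placebo for the saturated-chain elongases. For Elovl2 with Elovl5 the sums were 1554, 1937 and 957 TPM in DHT 1, 2 and 3, against 756, 572 and 336 TPM in placebo 1, 2 and 3. Elovl1, Elovl2 and Elovl6 each overlapped between the groups. These sums and shares therefore restate the change of Elovl3 and Elovl5, and were not tested. Among the desaturases, the SCD genes took 81.1, 81.1 and 65.3% in DHT 1, 2 and 3 and 64.7, 64.9 and 78.8% in placebo 1, 2 and 3, with overlap between the groups.

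Within the DHT group 9 members had their lowest and highest level in the same libraries. Library 3 was the lowest DHT library for 9 of the 10 members, all except Elovl3, while DHT 3 was the lowest of its group for 37.8% of all genes tested. DHT 2 was the highest for the same 9 members, against 32.9% of all genes. Genes outside the members had this order too, but the share of all genes tested with both traits was not counted. In palmitate synthesis, Acly, Acaca, Acacb, Fasn, Me1 and Mid1ip1 also had DHT 2 highest and DHT 3 lowest, while Slc25a1, Acss2, Mcat and Thrsp did not. In placebo, library 3 was the lowest for 6 members, Elovl1, Elovl2, Fads1, Fads2, Scd1 and Scd2, against 43.1% of all genes. The highest placebo library was number 1 for 4 members, number 2 for 4 and number 3 for 2, so the placebo libraries had no such common order. Those 6 were lowest in library 3 of both groups, a pattern that 29.0% of all genes tested showed. The range was widest for Elovl3 in placebo, at 9.63-fold, and for Scd1 in DHT, at 4.48-fold.

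**Figure D4:**
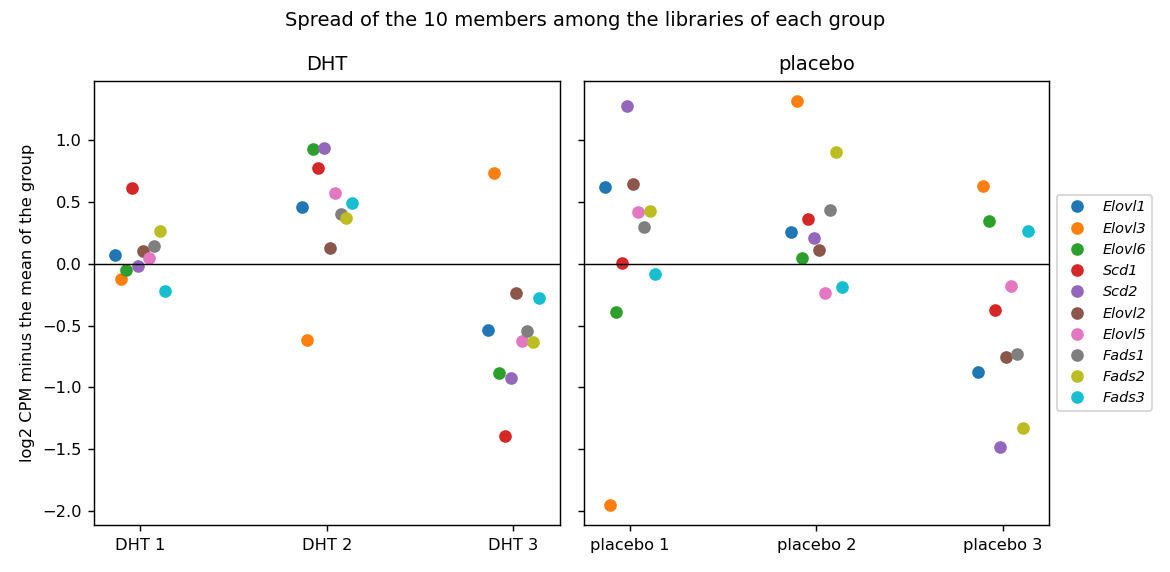
Log2 CPM of each member minus the mean of its own group (vertical axis) in the DHT libraries, at the left, and the placebo libraries, at the right. In DHT 3 the 9 members other than Elovl3 lie below the group mean, and in placebo 3 Elovl3, Elovl6 and Fads3 lie above it.

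Of the 10 members, 6 lie on chromosome 19. Fads1, Fads2 and Fads3 sit within 155323 bases, Scd1 to Scd4 within 204422 bases, and Elovl3 further along the same chromosome. Only Elovl3 was called among these 6. Exons overlapped those of another counted gene over 1.9% of the length of Elovl1 (Cdc20, opposite strand), 1.1% of Scd2 and 0.5% of Elovl6, and 0% of the other 7 members.

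Other enzymes of these families were read from a list of 7 genes, of which 5 were tested and 0 were called by edgeR, DESeq2 or limma voom, with 0 at an unadjusted edgeR p under 0.05. Their median log2 fold change was 0.21, against -0.02 over all genes tested. Degs1, the dihydroceramide desaturase, had 68.1 ± 5.92 CPM in DHT livers and 66.6 ± 9.47 CPM in placebo livers (log2 fold change -0.15), and Fads6 had 123.3 ± 26.4 and 94.0 ± 41.4 CPM (0.21). Elovl7, a further elongase of saturated chains, averaged 0.572 CPM in DHT livers and 1.02 CPM in placebo livers (edgeR adjusted p = 0.357). Scd3, best known from skin, averaged 1.31 and 0.832 CPM (0.48), and Degs2, which makes phytoceramides, averaged 0.344 and 0.237 CPM (0.33). Scd4 had at most 15 counts and Elovl4 at most 1 count in a library, and neither was tested.

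The enzymes that work with the members were mostly not called. Of 6 tested genes for the later steps of the elongation cycle, 0 were called by edgeR (1 at an unadjusted p under 0.05) or DESeq2 and 1 by limma voom, with a median log2 fold change of -0.24. Hsd17b12, the ketoacyl-CoA reductase of that cycle, had 285, 314 and 244 CPM in DHT 1, 2 and 3 and 125, 151 and 166 CPM in placebo 1, 2 and 3. Those groups did not overlap, but the log2 fold change of 0.74 ± 0.26 was not called (edgeR adjusted p = 0.222). The dehydratase genes Hacd1 and Hacd3 had log2 fold changes of -0.67 and -0.35.

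Desaturases draw electrons through cytochrome b5 and its reductases. Of 6 tested genes of this supply, 0 were called by edgeR (0 at an unadjusted p under 0.05), DESeq2 or limma voom, with a median log2 fold change of -0.15. Cyb5b, the outer mitochondrial membrane form, had 611 ± 56.5 CPM in DHT livers and 329 ± 112 CPM in placebo livers (log2 fold change 0.70 ± 0.31, edgeR adjusted p = 0.319). Cyb5a, the microsomal form, had a log2 fold change of -0.63, and Cyb5r1 of -0.48.

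Palmitate synthesis supplies the substrate of ELOVL6. Of its 10 genes, all tested, 0 were called by edgeR (1 at an unadjusted p under 0.05) or limma voom and 1, Thrsp, by DESeq2. The list had a median log2 fold change of -0.08. Thrsp, a lipogenic regulator, had 372, 786 and 449 CPM in DHT 1, 2 and 3 and 725, 1060 and 3067 CPM in placebo 1, 2 and 3 (log2 fold change -1.80 ± 0.58, edgeR adjusted p = 0.194). Placebo 3 was far above the other libraries, and without it the log2 fold change was -0.93 (edgeR adjusted p = 0.148). With the replicate block it fell (edgeR adjusted p = 0.00756), as did Acss2, an acetyl-CoA synthetase gene (-1.16 ± 0.54, edgeR adjusted p = 0.338, or 0.00679 with the block). Without placebo 2 the log2 fold change of Acss2 was -0.55. Me1, which supplies NADPH, had a log2 fold change of 0.76 ± 0.55 (edgeR adjusted p = 0.523).

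Among 12 regulators of these genes, 1 rose and 0 fell by edgeR, with a median log2 fold change of -0.13. At an unadjusted p under 0.05, 2 were higher and 0 lower, and DESeq2 and limma voom each called 2 higher. Insig2, whose protein holds SREBP precursors in the endoplasmic reticulum, had 485, 537 and 511 CPM in DHT 1, 2 and 3 and 48.4, 52.1 and 90.9 CPM in placebo 1, 2 and 3. The groups were far apart, and the log2 fold change was 2.81 ± 0.33 (edgeR adjusted p = 0.00861). Leaving out any 1 library did not end this call (edgeR adjusted p at most 0.0492). Insig1, its relative, had a log2 fold change of -0.76 ± 0.36 (edgeR adjusted p = 0.350). Pparg, a nuclear receptor of fat storage, had 24.3 ± 6.63 CPM in DHT livers and 8.44 ± 2.47 CPM in placebo livers (1.34 ± 0.32, edgeR adjusted p = 0.0967), and rose with the replicate block (edgeR adjusted p = 0.000329) and without placebo 3 (1.12, edgeR adjusted p = 0.0403).

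Fatty acids must be activated before elongation and are then built into lipids. Of 13 tested genes for these steps, 0 were called by edgeR (3 at an unadjusted p under 0.05) or limma voom and 2, Acsl4 and Agpat2, by DESeq2, with a median log2 fold change of -0.28. Acsl4, which favours arachidonic acid, had 64.0 ± 22.2 CPM in DHT livers and 107 ± 7.91 CPM in placebo livers (-0.93 ± 0.29, edgeR adjusted p = 0.176), and fell with the replicate block (edgeR adjusted p = 0.0135). Agpat2 (0.73 ± 0.23, edgeR adjusted p = 0.177) and Dgat2 (-0.70 ± 0.27, edgeR adjusted p = 0.261) act in triglyceride synthesis.

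The last step to docosahexaenoic acid is a shortening in peroxisomes, after ELOVL2. Of 9 genes of that step, all tested, 2 rose and 0 fell by edgeR, with a median log2 fold change of 0.62. At an unadjusted p under 0.05, 3 were higher and 1 lower, while DESeq2 called 2 higher and 1 lower and limma voom 2 higher. Acaa1b, a peroxisomal thiolase, had 2186, 2089 and 1639 CPM in DHT 1, 2 and 3 and 472, 655 and 385 CPM in placebo 1, 2 and 3. Scp2, a thiolase and lipid carrier, had 5527, 5092 and 4776 CPM in DHT 1, 2 and 3 and 1718, 1390 and 1874 CPM in placebo 1, 2 and 3. Exons of Acaa1b overlap those of Dlec1, on the opposite strand, over 11.4% of their length. Neither gene overlapped between the groups, and the log2 fold changes were 1.78 ± 0.31 (edgeR adjusted p = 0.0332) and 1.44 ± 0.27 (edgeR adjusted p = 0.0393). Of the 6 fits that left out 1 library, both were called only in that without placebo 3 (edgeR adjusted p up to 0.153 and 0.200 in the others). Abcd2, a peroxisomal fatty acid transporter gene, had a log2 fold change of -1.27 ± 0.34 (edgeR adjusted p = 0.135) and fell with the replicate block (edgeR adjusted p = 0.000384), which called 4 higher and 1 lower in this list.

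**Figure D5:**
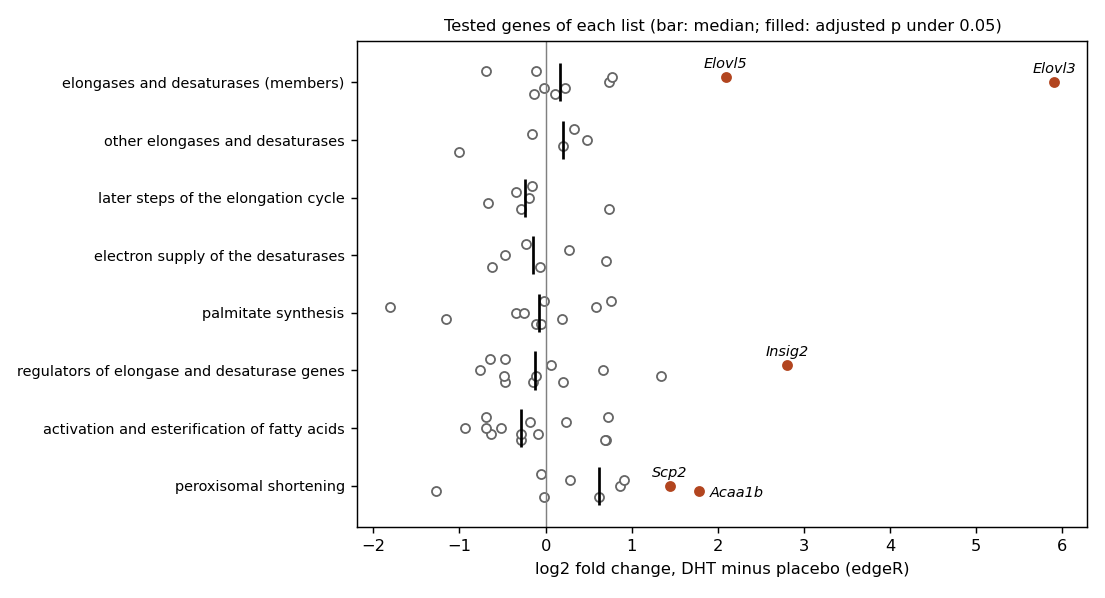
Log2 fold change, DHT minus placebo (horizontal axis), of the tested genes of each list. Filled points are called at an edgeR adjusted p under 0.05, and vertical bars are list medians. Only Elovl3, Elovl5, Insig2, Acaa1b and Scp2 are called among the genes drawn.

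Markers of the cell types that liver can hold were set beside these results, since adipocytes also express Scd1 and Elovl3. Of 50 tested markers in 7 lists, 1 rose and 0 fell by edgeR. The 10 hepatocyte markers summed to between 85230 and 101336 CPM in DHT livers and between 95925 and 141199 CPM in placebo livers, with 0 called by edgeR (2 lower at an unadjusted p under 0.05) or limma voom, 1 lower by DESeq2 and 2 lower with the replicate block. The adipocyte list summed to between 34.3 and 92.6 CPM in DHT livers and between 21.6 and 30.8 CPM in placebo livers. Cfd carried that gap, at 4.56, 15.5 and 59.9 CPM in DHT 1, 2 and 3 and at most 0.13 CPM in placebo libraries. The 3 tested genes of the list that were not called overlapped between the groups. The called gene was Cfd, which encodes adipsin (270, 803 and 2475 counts in DHT 1, 2 and 3, against 3, 4 and 7 in placebo 1, 2 and 3), and it is also made outside adipocytes. That call was lost without placebo 1 (edgeR adjusted p = 0.109), placebo 2 (0.0774) or placebo 3 (0.0991). In the adipocyte list DESeq2 called 1 gene higher and the replicate block 2, while limma voom called 0, so it did not call Cfd. Adrb3 of that list had a log2 fold change of 1.59 ± 0.75 (edgeR adjusted p = 0.348) and rose with the replicate block (edgeR adjusted p = 0.0135), with 0.62 without DHT 3 and 2.44 without placebo 3. Adipoq, Plin1 and Retn had at most 2 counts in any library and Lep had 0 in all. The part of these markers in the results was not tested.

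By edgeR, 0 of 8 Kupffer cell and macrophage markers were called (0 at an unadjusted p under 0.05), 0 of 8 stellate cell and fibroblast markers (1 lower) and 0 of 8 sinusoidal endothelial markers (1 lower). DESeq2 and limma voom also called 0 in these 3 lists, and the replicate block called 1 sinusoidal endothelial marker lower. Of 6 tested cholangiocyte markers edgeR called 0 (4 lower at an unadjusted p under 0.05), DESeq2 2 lower, limma voom 1 lower and the replicate block 1 lower. Of 6 tested T, NK and B cell markers edgeR called 0 (2 lower at an unadjusted p under 0.05), and DESeq2 and limma voom 1 lower each. The mitochondrial share of counts was 7.64 ± 1.07% in DHT livers and 4.96 ± 1.80% in placebo livers (SD, n = 3 each), and its part in these results was not tested.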

How the data were processed

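Per the file headers, each library has its own deposited table of raw counts per gene, in whole numbers. The submitters' processing notes name GRCm38 and the tools STAR 2.5.2b, Subread 1.5.2, Trimmomatic 0.36 and featureCounts. Settings for strand and multimapping were not given in the sources used here. Symbols and coordinates are those of the deposited tables.

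CPM is counts over the total of all genes in a library, and TPM also divides by exon length. Tests used edgeR 4.0.16 in R 4.3.3: filterByExpr by group, TMM factors (0.921 to 1.08), and a robust quasi-likelihood fit without covariates. TMM factors were above 1 in DHT and below 1 in placebo libraries, so CPM ratios exceed fitted folds. A standard error is the log2 fold change over the square root of F, and intervals use the fit's degrees of freedom. The 3 counts that set a floor equal 0.0498 to 0.0726 CPM, and count floors cover counting error only. The fit was also run on simulated counts with the same relative spread for every gene. That run does not measure how often the fit misses a change in these libraries. No pair of libraries of a group agreed within sampling noise (smallest chi-square per degree of freedom 104.65).

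The titles number the libraries 1 to 3 in each group. Deviations from group means correlated at 0.246, 0.145 and 0.602 between libraries of the same number 1, 2 and 3, across 15126 genes. DHT 1 with placebo 2 reached 0.445 and DHT 2 with placebo 1 reached 0.287, so only number 3 matched its own number best. The labels state no shared litter or day. A pairing by number is therefore not established, and the replicate block and the paired differences are given as an alternative only.

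The members and lists were chosen with earlier results of these data known. Named genes are all members, all detected relatives, the 3 genes with the smallest p in each other pathway list, and 2 in a marker list that holds a call. Pitx3, and the palmitate synthesis genes named only for their order among the DHT libraries, were added after their values were seen. Alternatives were DESeq2 size factors, library size alone, the replicate block, all genes kept whatever their count, a minimum of 1 CPM in 3 libraries, leaving out mitochondrial genes with the 20 most counted ones, DESeq2 1.42.0, limma 3.58.1 voom with quality weights, a fit that was not robust, and leaving out each library. Added after seeing the data were leaving out both libraries numbered 3, and route sums without Scd1 or for elongases alone.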

Additional observations from a re-analysis of the deposited data

How the results depend on the processing

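Across all genes, 250 calls became 521 with no low-count filter, 1621 with the replicate block, 1062 by DESeq2, 744 by limma voom and 448 without both libraries numbered 3, and lay between 84 and 862 when 1 library was left out. Of the 10 members, 2 were called in each setting that kept all libraries except the replicate block, which called 1 (Elovl5), and in the fit without both libraries numbered 3. Leaving out 1 library gave 0 to 2, with 0 without placebo 2. Over the pathway lists, 3 calls became 10 with the replicate block, 8 by DESeq2 and 5 by limma voom, and 1 to 5 when 1 library was left out. Among the genes named above, the replicate block changed the calls of Elovl3, Thrsp, Acss2, Pparg, Acsl4, Abcd2 and Adrb3, whose values stand there.

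The share of the saturated and monounsaturated route, DHT minus placebo, was 3.43 percentage points in TPM, -0.51 in CPM, 12.2 with Scd1 left out and 14.7 for elongases alone, and 0.218 to 7.86 when 1 library was left out. The values with Scd1 left out and for elongases alone mostly restate the rise of Elovl3. Elovl3 and Elovl5 kept their direction in all 16 other settings, and Fads3 was called in none of them. Scaling by library size alone gave all genes a median log2 fold change of 0.17, in place of -0.02.

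Signs of members near 0 were not settled. Elovl6 had 0.089 with library size alone, 0.15 by limma voom and 0.43 without both libraries numbered 3. Fads1 had 0.055 and Fads2 0.16 with library size alone, and Fads2 had 0.17 with the replicate block. When 1 library was left out, log2 fold changes ran from -0.21 to 0.39 for Elovl1, -0.063 to 0.54 for Elovl2, -0.67 to 0.24 for Elovl6, -0.41 to 0.11 for Fads1, -0.44 to 0.46 for Fads2 and -1.26 to 0.051 for Scd2. Of the relatives, Fads6 ran from -0.11 to 0.49, Scd3 from -0.11 to 1.47 and Degs2 from -0.092 to 0.59. Degs1 had 0.032 with library size alone, and Degs2 had -0.019 by limma voom and -0.17 without both libraries numbered 3. The cause of these shifts was not tested.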
